A study of Homo sapiens with 2 samples.

Results

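The replication-dependent histone genes were compared between 1 library of wildtype (MAEL WT) and 1 library of MAEL knockout (MAEL KO) cells of PLC8024, a hepatoma line also listed as PLC/PRF/5. They were taken as the genes whose name in the deposited count table begins with HIST, a digit and H, which gave 90 of 58735 listed genes, of which 71 are annotated as protein-coding. By histone type, 8 belong to H1, 23 to H2A, 26 to H2B, 17 to H3 and 16 to H4. By name, 68 belong to the HIST1 cluster on chromosome 6, 17 to HIST2 and 4 to HIST3 on chromosome 1, and 1 to HIST4 on chromosome 12, although 2 pseudogenes named for HIST1 lie elsewhere. The knockout was made with an sgRNA and Cas9 plasmid, and sorted cells were seeded for single clones, so the MAEL KO library stands for a selected clone, while the MAEL WT cells are labelled wildtype and non-treated, although the study elsewhere calls its wildtype cells a nontarget control. With 1 library per condition, no value below has a replicate check, no p-value is given, and clone, culture and knockout cannot be told apart.

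Core histones H2A, H2B, H3 and H4 form the protein spool on which DNA is wound, and the linker histone H1 binds where the DNA enters and leaves it. The replication-dependent genes for these proteins are short, lack introns and are transcribed mainly in S phase, when new DNA has to be packaged. Their main mRNAs do not end in a poly(A) tail but in a short stem-loop, which is bound by SLBP, the stem-loop binding protein. Some of these genes also give longer transcripts that run past the stem-loop and are polyadenylated, and these are known from cells that have stopped dividing. Cells also use replication-independent variants, such as those from H2AFZ and H1F0, most of whose mRNAs carry a poly(A) tail.

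The stem-loop is shown because it separates both kinds of transcript, and a gene model that runs on past it can collect reads of the longer kind. In GENCODE 29 transcripts, the letters of the histone stem-loop were found on the sense strand in 35 of the 90 genes, in 6 forms. Over all 206694 transcripts of that annotation, 0.0285% held one of these forms, and outside the HIST genes they were found in 5 genes, among them H2AFX. In the sequences below, each 5′ to 3′, the stem-loop of 16 bases is in capitals with 5 bases on either side.
HIST1H2AC: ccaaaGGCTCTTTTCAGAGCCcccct
HIST1H4H: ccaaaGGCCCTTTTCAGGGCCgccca
HIST1H4I: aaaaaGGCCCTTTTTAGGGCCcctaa
HIST1H3E: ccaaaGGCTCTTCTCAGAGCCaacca
HIST1H2BD: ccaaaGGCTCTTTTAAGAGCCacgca
HIST1H2AG: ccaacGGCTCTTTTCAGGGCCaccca
The form of HIST1H2AC was the most frequent, with 18 genes of types H2A, H2B and H3. The form of HIST1H4H was held by 5 genes, and that of HIST1H4I by 3, all of them H4 genes. For 55 of the 90 genes no form was found in the model, and many of these models cover little beyond the coding sequence.

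Reads of the histone genes were few in both libraries. They summed to 1984 of 19904136 counts in MAEL WT and to 931 of 20833332 in MAEL KO. Counts were scaled by TMM, edgeR's correction for differences in library composition, after which the summed level was 90.6 CPM (counts per 1 M reads of scaled library size) in MAEL WT and 49.2 CPM in MAEL KO, 1.84-fold lower. The log2 ratio of the sums was -0.88, with an exact Clopper-Pearson interval of 95% from -0.995 to -0.77 that covers counting error only. Of the 90 genes, 31 had no count in either library, 35 had at most 9 counts in each library, and 24 reached 10 counts in at least 1 library, the level from which a log2 fold change was computed with 1 added to both normalized counts. In bulk RNA, fewer cells that express a gene and less RNA per cell cannot be told apart.

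The HIST genes were lower in MAEL KO in most of these 24 cases. Of the 24 genes, 21 (87.5%) were below 0 on the log2 scale and 3 above it, against 52% of all 17887 genes tested below 0 and 48% above. The median was -0.73 for the histone genes and -0.04 for all genes tested. Genes with few counts were lower in MAEL KO more often, and among the 9202 genes with no more counts than the highest histone gene, 62.2% were below 0, with a median of -0.31. A log2 fold change below -1 was reached by 9 of the 24 genes (37.5%), against 16.5% of all genes and 26.7% of the 9202 genes. Above 1 was HIST2H2AC alone among the 24, against 10.2% of all genes. Below -2, the cutoff of the study's methods, were HIST1H4H and HIST2H2BF. They are 8.33% of the 24 genes against a background of 5.64%, or 9.8% among the 9202 genes. The share past this cutoff was thus near the background. None of the 24 was above 2, against 2.16% of all genes, and 7.8% of all genes were past 2 in either direction. With 0.1 added, or with the FPKM ratio, HIST2H2AC passed 2, against 2.44% and 2.31% of all genes. With total counts 3 genes (12.5%) were below -2, against 7.32% of all genes. The counting interval lay below 0 for 11 genes, above 0 for 1 gene and included 0 for 12. A gene near 10 counts can enter through the library in which it is higher. HIST1H4H and HIST2H2BF reached 10 counts in MAEL WT alone and HIST2H2AC in MAEL KO alone, so their direction is tied to the filter. The same holds for HIST1H2BJ, HIST3H2BB, HIST1H1E, HIST1H3H, HIST1H4K and HIST1H4C, which entered through MAEL WT alone. The filter was the same for all genes tested.

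**Figure D1:**
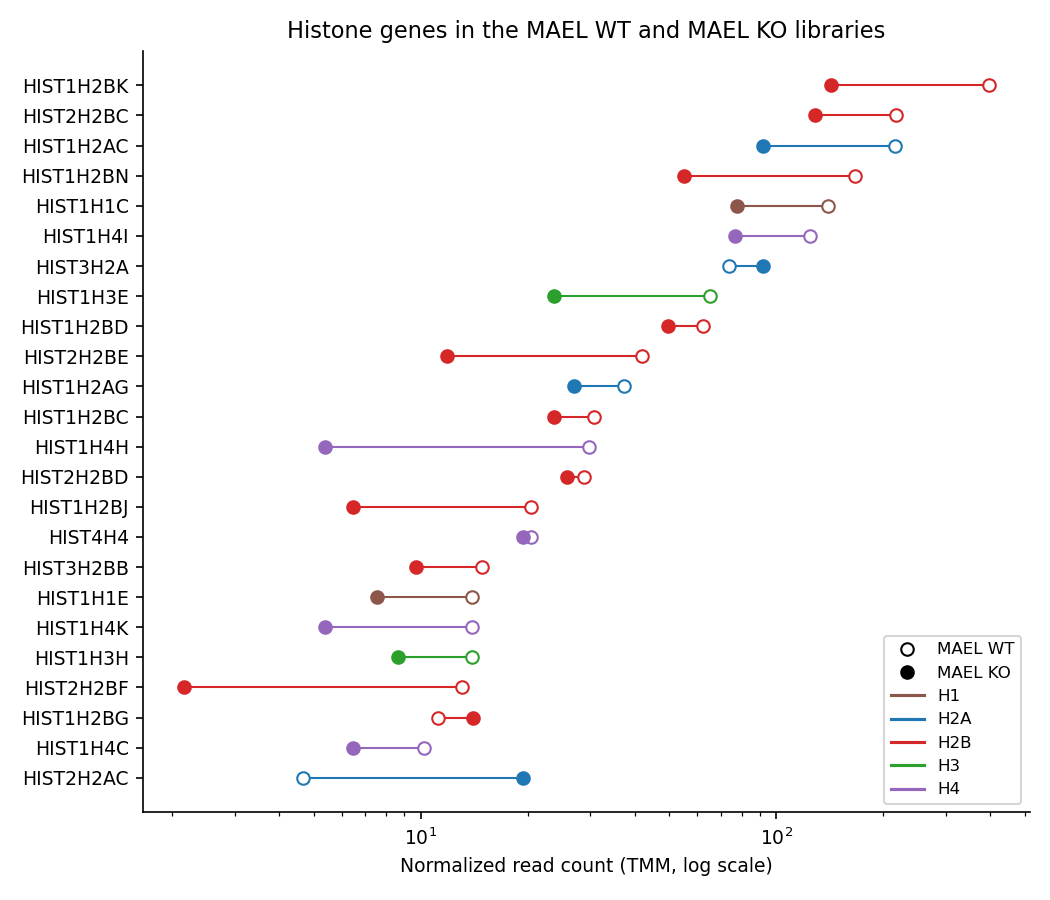
Normalized read counts (log axis) of the 24 histone genes with at least 10 counts in 1 library, with MAEL WT as open and MAEL KO as filled points, coloured by histone type and ordered by the MAEL WT level. The filled point lies to the left in 21 genes and to the right in HIST3H2A, HIST1H2BG and HIST2H2AC.

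H2B genes held the largest share of these reads, 55.5% in MAEL WT and 48.4% in MAEL KO. The H2B values include the pseudogenes HIST2H2BC, with 233 counts in MAEL WT and 119 in MAEL KO, and HIST2H2BD, with 31 and 24. The summed H2B level was 50.3 CPM in MAEL WT and 23.8 CPM in MAEL KO, a log2 ratio of -1.08 (counting interval -1.24 to -0.92). HIST1H2BK on chromosome 6, from 27146418 to 27146798 of GRCh38 on the minus strand, had 427 counts in MAEL WT and 132 in MAEL KO, a log2 fold change of -1.48 (counting interval -1.78 to -1.20). It alone gave 21.5% of the histone reads in MAEL WT, and without it the log2 ratio of the summed H2B genes was -0.87 and the median of all histone genes tested -0.70. Its model holds 381 bases and no stem-loop letters. HIST1H2BN had 179 counts in MAEL WT and 51 in MAEL KO, a log2 fold change of -1.58 (counting interval -2.08 to -1.14). Its exons overlap those of HIST1H2AL and, on the other strand, HIST1H2AK, which had at most 3 counts each in either library.

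Of the 11 H2B genes tested, 2 of them pseudogenes, 10 were lower in MAEL KO and 1 higher, with a median log2 fold change of -0.75. Over all genes tested, 52% were below 0. HIST2H2BE had 45 counts in MAEL WT and 11 in MAEL KO, and HIST1H2BJ had 22 and 6. Both were lower beyond their counting intervals, with log2 fold changes of -1.74 and -1.53. HIST2H2BF had 14 counts in MAEL WT and 2 in MAEL KO. Since 2 counts lie under the floor of 3 counts used here, the fold was taken at the floor, where it was 4.03-fold lower. The end of its counting interval nearest to 0 was -0.47, which allows a smaller difference. An exon of FCGR1A overlaps HIST2H2BF on the other strand. The other H2B genes differed less. HIST1H2BD had 67 and 46 counts, HIST1H2BC 33 and 22, and HIST3H2BB 16 and 9 in MAEL WT and MAEL KO, and the counting intervals of these genes included 0. HIST1H2BG, with 12 counts in MAEL WT and 13 in MAEL KO, was at 0.30 with an interval from -0.92 to 1.59.

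A pair of H2B pseudogenes with transcripts was also counted. HIST2H2BC had 233 counts in MAEL WT and 119 in MAEL KO, a log2 fold change of -0.75 (counting interval -1.09 to -0.43), and HIST2H2BD had 31 and 24, with an interval that included 0. Their exons overlap on opposite strands, and the strand setting of the counting is not given in the sources used here, so reads of both cannot be told apart. Over a model of 6440 bases, HIST2H2BC was at 1.65 FPKM in MAEL WT and 0.975 FPKM in MAEL KO, as deposited, while HIST1H2BK was at 51.2 and 18.3 FPKM.

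H4 genes, which encode a protein that is nearly the same throughout eukaryotes, were lower in 5 of the 5 cases tested. Of all genes tested, 52% were below 0. HIST1H4H, HIST1H4K and HIST1H4C reached 10 counts in MAEL WT alone, so their direction is tied to the filter. HIST1H4I had 134 counts in MAEL WT and 71 in MAEL KO, a log2 fold change of -0.70 (counting interval -1.14 to -0.28). HIST1H4H fell from 32 counts to 5, a log2 fold change of -2.27 (counting interval -4.18 to -1.10). It is on chromosome 6 from 26277609 to 26285638 on the minus strand, and its model runs on for 1655 bases past the stem-loop printed above. HIST4H4, the single gene of its cluster, had 22 counts in MAEL WT and 18 in MAEL KO, a log2 fold change of -0.08 that did not differ from 0 beyond counting error. HIST1H4K had 15 and 5 counts, and none of the 100-base words of its model was unique among the GENCODE transcripts, so its reads can belong to other H4 genes. HIST1H4C had 11 and 6 counts.

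The linker histones followed the same direction. HIST1H1C had 150 counts in MAEL WT and 72 in MAEL KO, a log2 fold change of -0.84 (counting interval -1.27 to -0.43). HIST1H1E had 15 and 7 counts, a log2 fold change of -0.81 with an interval that included 0. HIST1H1B, HIST1H1D and HIST1H1A, the other somatic linker genes of the cluster, had at most 3 counts in either library, and HIST1H1T, the testis linker gene, had none.

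H3 genes were represented by HIST1H3E and HIST1H3H among those tested. HIST1H3E had 70 counts in MAEL WT and 22 in MAEL KO, a log2 fold change of -1.42 (counting interval -2.22 to -0.75). HIST1H3H had 15 and 8 counts, with an interval that included 0. The other 15 H3 genes had at most 9 counts in either library.

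H2A genes tested stood on both sides of 0, with 2 lower and 2 higher. HIST1H2AC had 232 counts in MAEL WT and 85 in MAEL KO, a log2 fold change of -1.23 (counting interval -1.61 to -0.87). HIST1H2AG, with 40 and 25 counts, was at -0.45 with an interval that included 0. HIST3H2A had 79 counts in MAEL WT and 85 in MAEL KO, a log2 fold change of 0.31 with an interval from -0.14 to 0.78. HIST2H2AC had 5 counts in MAEL WT and 18 in MAEL KO, a log2 fold change of 1.85 (counting interval 0.58 to 3.84). It was the gene among the 24 whose counting interval lay above 0. The summed H2A level was 16.9 CPM in MAEL WT and 12.1 CPM in MAEL KO, a log2 ratio of -0.49 (counting interval -0.73 to -0.24), and of -0.14 when the deposited FPKM values were summed in place of counts.

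**Figure D2:**
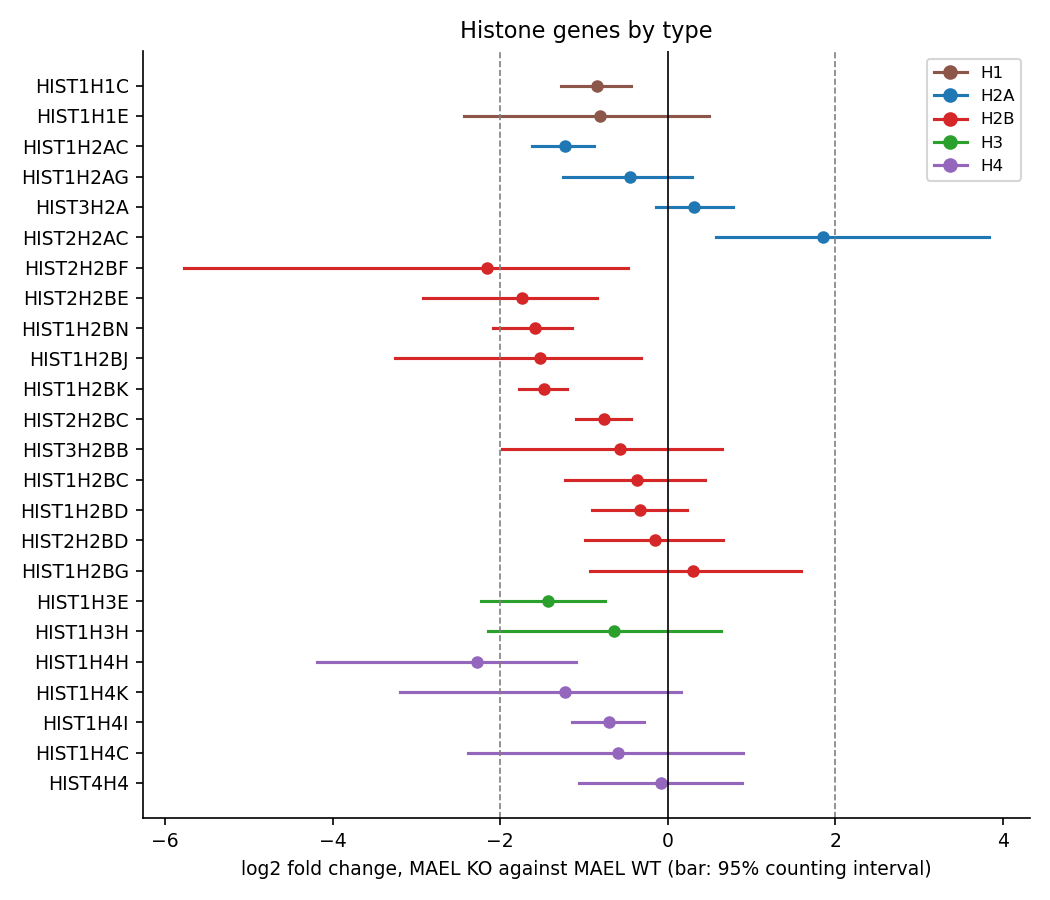
Log2 fold changes (MAEL KO over MAEL WT, horizontal axis) of the 24 histone genes tested, grouped and coloured by type, with bars for the 95% counting interval and dashed lines at -2 and 2. HIST1H4H and HIST2H2BF lie past -2, and HIST2H2AC is the gene whose bar lies to the right of 0.

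Many H2A and H2B genes stand back to back and share the stretch between their starts. Among the protein-coding members, 11 such H2A and H2B pairs with starts 219 to 331 bases apart were found. In 4 pairs both genes could be tested. HIST1H2BC and HIST1H2AC were both lower in MAEL KO, as were HIST1H2BJ and HIST1H2AG. HIST2H2BE and HIST2H2AC, whose starts lie 323 bases apart on chromosome 1, stood on opposite sides of 0, at -1.74 for the H2B and 1.85 for the H2A gene. HIST3H2A and HIST3H2BB, 234 bases apart, were at 0.31 and -0.57, both with intervals that included 0.

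In some pairs, reads were shared very unequally. HIST1H2BK had 427 and 132 counts, while HIST1H2AH, on the other side of 331 bases, had 0 in MAEL WT and 3 in MAEL KO, which is at the floor. HIST1H2AC had 232 counts in MAEL WT against 33 of HIST1H2BC, whose model is shorter, and per length they were at 6.36 and 1.81 FPKM. HIST1H2BJ and HIST1H2AG were closer, with 22 and 40 counts in MAEL WT, or 1.06 and 0.81 FPKM. In 5 of the 11 pairs neither gene reached 10 counts.

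**Figure D3:**
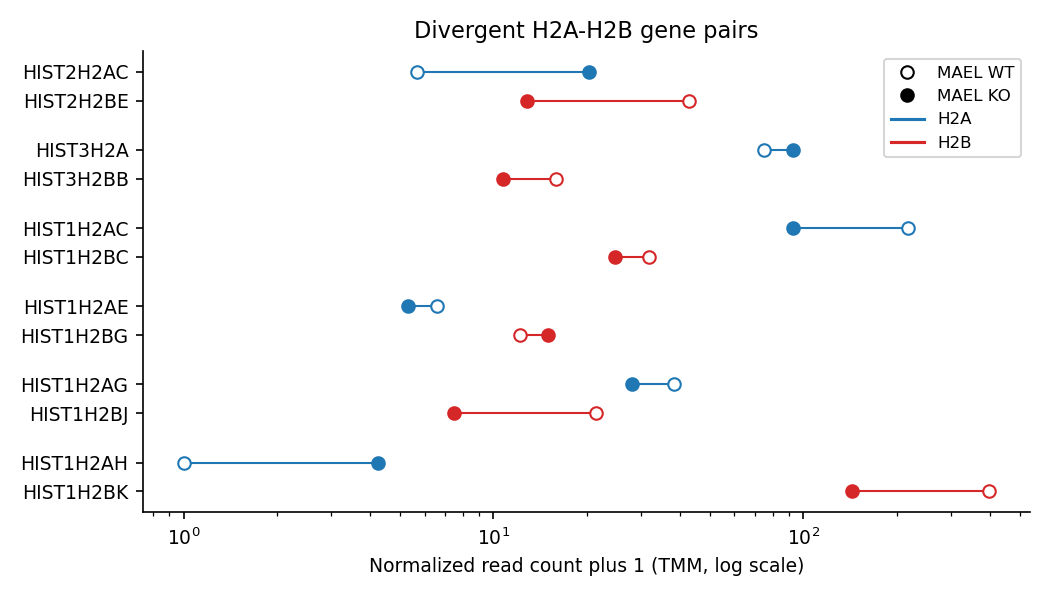
Normalized read counts plus 1 (log axis) of the 6 divergent H2A and H2B pairs in which at least 1 gene was tested, MAEL WT as open and MAEL KO as filled points. In the uppermost pair the H2A gene is higher and the H2B gene lower in MAEL KO.

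The promoters of these genes are shown because paired genes share them. RefSeq promoter sequences, 250 bases before to 50 bases after the start, were matched for 61 of the 90 genes through their newer names. They were searched on both strands for the octamer ATTTGCAT, which is bound by OCT1, for CCAAT and for TATAAA. The octamer stood in 11 of 16 H2A and 9 of 13 H2B promoters, in 1 of 13 H3 promoters and in none of 13 H4 or 6 H1 promoters, against 1.77% of 35116 promoters of all genes. The H3 promoter with the octamer is that of HIST1H3D, whose RefSeq window is the same stretch as that of HIST1H2AD and lies apart from the gene's start in the count table, so 1 window was counted under both types. CCAAT stood in 16 of 16 H2A, 13 of 13 H2B, 13 of 13 H3 and 6 of 6 H1 promoters but in 3 of 13 H4 promoters, against 34.6% of all. TATAAA stood in 41 of the 61, against 11.5% of all. The windows of paired genes overlap, so the same match can be counted under both H2A and H2B. HIST2H2AC and HIST2H2BE share their octamer, as do HIST1H2AG and HIST1H2BJ. The promoters counted are therefore not all independent. A match describes letters and not a bound site. The promoters below are on GRCh38.p14, 5′ to 3′ in the direction of the named gene, with all matches to these motifs in capitals.
HIST2H2AC (RefSeq H2AC20), chr1:149886668-149886967, plus strand: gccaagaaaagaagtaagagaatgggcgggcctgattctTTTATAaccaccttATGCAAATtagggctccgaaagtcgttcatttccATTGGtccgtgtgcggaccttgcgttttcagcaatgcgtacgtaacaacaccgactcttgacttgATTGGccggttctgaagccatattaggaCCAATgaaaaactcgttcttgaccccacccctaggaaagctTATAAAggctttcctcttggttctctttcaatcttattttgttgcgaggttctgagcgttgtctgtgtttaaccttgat
HIST1H2BK (RefSeq H2BC12), chr6:27146809-27147108, minus strand: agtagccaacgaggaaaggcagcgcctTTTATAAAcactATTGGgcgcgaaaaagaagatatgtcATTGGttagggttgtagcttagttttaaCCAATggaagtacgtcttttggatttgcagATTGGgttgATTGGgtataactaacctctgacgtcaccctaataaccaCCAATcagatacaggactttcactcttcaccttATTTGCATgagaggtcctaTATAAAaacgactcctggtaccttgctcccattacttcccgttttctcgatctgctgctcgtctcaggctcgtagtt
HIST1H4H (RefSeq H4C8), chr6:26285485-26285784, minus strand: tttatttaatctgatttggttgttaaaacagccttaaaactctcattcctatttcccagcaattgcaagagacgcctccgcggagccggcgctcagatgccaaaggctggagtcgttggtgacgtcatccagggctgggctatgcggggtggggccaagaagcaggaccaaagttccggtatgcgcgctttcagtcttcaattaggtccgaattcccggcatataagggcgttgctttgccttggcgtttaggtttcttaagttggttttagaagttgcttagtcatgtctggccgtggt
The sequence of HIST2H2AC holds TATAAA on both strands, near the start of HIST2H2AC and near that of HIST2H2BE, the gene on the other side. HIST1H4H, which had the lowest log2 fold change, holds none of the motifs in this window.

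Most reads came from genes whose models run well past the stem-loop. In 25 of the 90 genes the model went on for over 100 bases after it, and 16 of these were tested. These 25 genes took 61.7% of the histone reads in MAEL WT and 62.7% in MAEL KO. In 10 genes the stem-loop lay within 100 bases of the end of the model, and 1 of these was tested, HIST1H2BD, which has another transcript without the stem-loop letters. Of the 55 genes with no stem-loop in the model, 7 were tested. A longer model has more bases in which a read can be counted, and a model that ends with the coding sequence leaves reads beyond it uncounted, so these shares describe the annotation as well as the RNA.

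Among the 16 tested genes with models that run on, 14 were lower in MAEL KO, with a median log2 fold change of -0.67. Among the 7 without a stem-loop in the model, 6 were lower, with a median of -0.84. Models over 1000 bases gave a median of -0.73 over 14 genes and shorter models a median of -0.70 over 10 genes. Genes with long and with short models were thus mostly lower, against 52% of all genes tested.

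**Figure D4:**
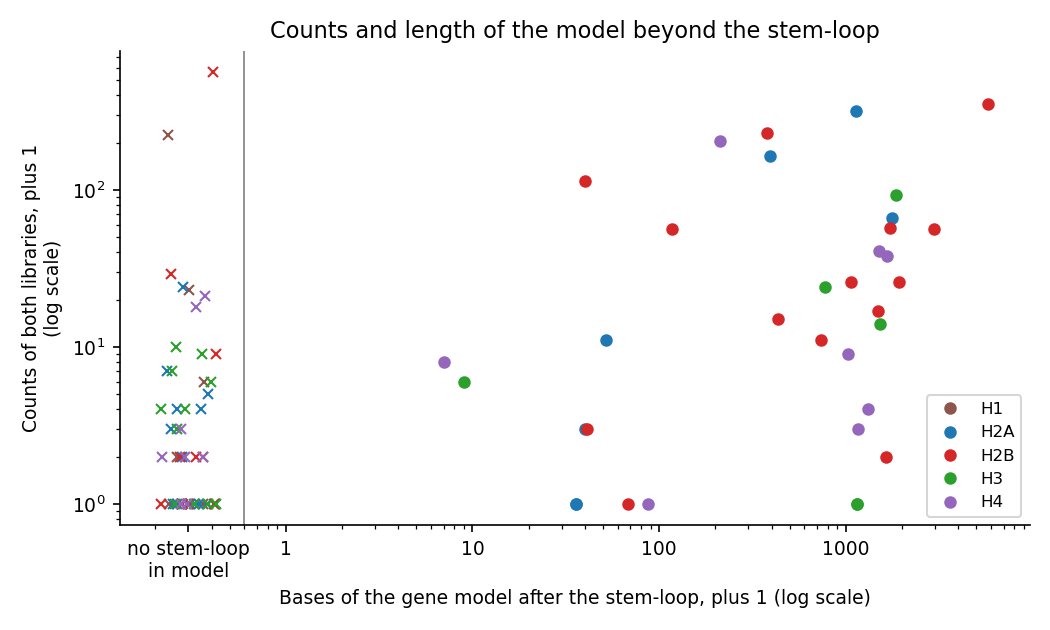
Counts of both libraries plus 1 (log axis) against the number of bases of the gene model after the stem-loop plus 1 (log axis) for the 90 histone genes, coloured by type, with crosses at the left for the 55 genes without stem-loop letters in the model. Most points above 10 counts lie beyond 100 bases, and HIST1H2BK and HIST1H1C are the highest crosses.

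The 66 genes with fewer than 10 counts in both libraries showed no common direction. They summed to 85 counts in MAEL WT and 69 in MAEL KO, a log2 ratio of -0.09 with a counting interval from -0.57 to 0.38. Of these genes 16 had more counts in MAEL WT, 15 had more in MAEL KO, 4 had equal counts above 0, and 31 had none. A difference in single genes of this group was not detectable at this depth, where 3 counts correspond to 0.137 CPM in MAEL WT and 0.158 CPM in MAEL KO. The near-identical copies in the HIST2 cluster belong here. HIST2H2AA3, HIST2H2AA4, HIST2H3A and HIST2H3C had no count, HIST2H3D and HIST2H4B had 3 counts and HIST2H4A 2 counts in MAEL WT, and none had a count in MAEL KO. How reads that fit several copies were treated is not given in the sources used here, so a count of 0 for such a copy does not show that it was silent.

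By cluster, the summed level of HIST1 genes was 69.7 CPM in MAEL WT and 34.0 CPM in MAEL KO, a log2 ratio of -1.04 (counting interval -1.17 to -0.90), with 15 of 16 tested genes lower. For HIST2 the log2 ratio was -0.72 (counting interval -0.99 to -0.46), with 4 of 5 tested genes lower. Of all genes tested, 52% were below 0. The HIST2 sum came mostly from the pseudogene HIST2H2BC, with 233 of 336 counts in MAEL WT and 119 of 176 in MAEL KO. The overlapping pseudogene HIST2H2BD is also among the lower HIST2 genes. HIST3, with 100 counts in MAEL WT and 94 in MAEL KO, was at 0.12 (counting interval -0.30 to 0.54). HIST3H2A held 79 and 85 of these counts. The interval of HIST3 included 0 and that of HIST1 did not, and whether the clusters differ beyond replicate error could not be tested.

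Other protein-coding genes in the same regions, between the outermost protein-coding members of a cluster and up to 1 Mb to either side, ranged from -3.74 to 5.08 on the log2 scale. Around HIST1, 20 of 32 tested neighbours were lower, with a median log2 fold change of -0.24. Around HIST2, where the protein-coding HIST2H3PS2 lies apart and widens the window to 5982 kb, 36 of 57 were lower, with a median of -0.25. Around HIST3 and HIST4 the medians were 0.08 and 0.07. Of all genes tested, 52% were below 0, with a median of -0.04. The medians of the histone genes tested were -0.82 in HIST1 and -0.75 in HIST2, farther below 0 than those of the neighbours, and -0.13 in HIST3 and -0.08 in HIST4. The neighbours were not matched for counts. Among the 9202 genes with no more counts than the highest histone gene, 62.2% were below 0, with a median of -0.31.

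Most genes of related lists stood in the other direction. These lists were chosen with earlier results of these data known, and 48% of all genes tested were above 0. Of the 11 replication-independent histone variants tested, 9 were higher in MAEL KO, with a median log2 fold change of 0.70. H2AFZ, which marks active promoters, had 3175 counts in MAEL WT and 6500 in MAEL KO (63.0 and 149 FPKM), a log2 fold change of 1.24. H2AFX, the variant phosphorylated at DNA breaks, whose transcript holds the stem-loop letters unlike those of the other variants listed, had 889 and 1790 counts, a log2 fold change of 1.22. H2AFV and CENPA, the centromeric H3, were at 1.35 and 1.31. H2AFJ, with 735 and 688 counts, was at 0.11 with an interval that included 0. Per length, HIST1H2AC was at 6.36 FPKM in MAEL WT and 2.69 FPKM in MAEL KO, far below H2AFZ in both libraries.

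H1F0 and H2AFY2 were the variants lower in MAEL KO. H1F0, a linker histone known from cells that have left the cycle, had 6401 counts in MAEL WT and 2749 in MAEL KO, a log2 fold change of -1.01 (counting interval -1.07 to -0.94). Its level was 125 FPKM in MAEL WT and 61.9 FPKM in MAEL KO, against 10.7 and 5.92 FPKM of HIST1H1C. H2AFY2, a macroH2A variant, had 97 and 39 counts, a log2 fold change of -1.09.

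The machinery that makes and ends histone mRNA was mostly higher in MAEL KO. Of 26 genes of histone mRNA processing tested, 22 were higher, against 48% of all genes tested, and 4 lower. Their median log2 fold change was 0.63. SLBP had 1345 counts in MAEL WT and 2674 in MAEL KO, a log2 fold change of 1.20 (counting interval 1.11 to 1.30). SNRPF and SNRPE, proteins of the Sm ring, were at 1.52 and 1.25. CTIF, which links the cap-binding complex to translation, had 996 and 287 counts, a log2 fold change of -1.58, and LSM10 and MIF4GD were at -0.46 and -0.34. Of 14 genes of histone gene transcription, 11 were higher, with a median of 0.82. NPAT, the coactivator of histone genes at the histone locus body, had 208 counts in MAEL WT and 354 in MAEL KO, and E2F2, CCNE2 and CDK2 were at 1.74, 1.49 and 1.43. YY1, ZNF384 and HINFP, a factor of H4 promoters, were at -0.17, -0.09 and -0.04.

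Histone chaperones, which carry new histones to DNA, were higher in 24 of 30 cases, against 48% of all genes tested. Their median log2 fold change was 0.77. HJURP, the chaperone of CENPA, had 195 counts in MAEL WT and 997 in MAEL KO, MCM2 had 645 and 2916, and ASF1B had 322 and 1446. These were past 2 on the log2 scale, with values of 2.56, 2.39 and 2.37. UBN2, VPS72 and CDAN1 were the lowest, at -0.57, -0.37 and -0.22. All of the 38 S-phase genes listed were above 1, against 10.2% of all genes tested, with a median of 1.92. RRM2 was highest, at 3.40, and MCM4 was at 3.04, while POLD1, POLA2 and SLBP were lowest, at 1.05, 1.15 and 1.20. SLBP and MCM2 stand in more than 1 of these lists.

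**Figure D5:**
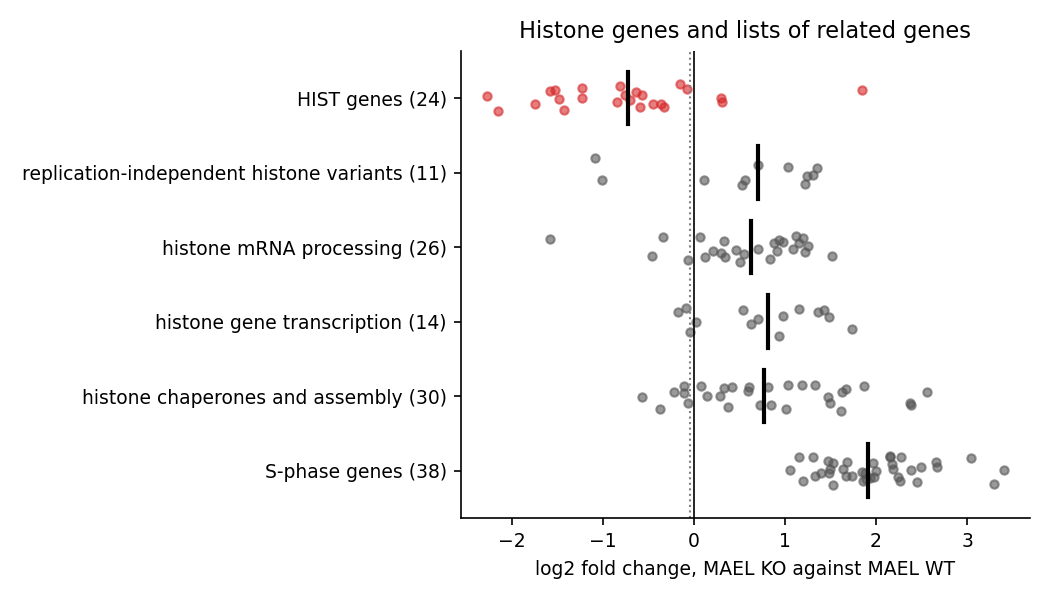
Log2 fold changes (MAEL KO over MAEL WT, horizontal axis) of the histone genes and for 5 lists of related genes, with 1 point per gene tested, the number of genes in brackets and a thick bar at each median. The dotted line marks the median of all genes tested at -0.04. The histone genes lie mostly to the left of 0 with a median of -0.73, and the S-phase genes all lie to the right of 1.

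Most of the listed RNAs that lack a poly(A) tail had no count. The labels give total RNA and a standard Illumina protocol, and whether poly(A) RNA was selected is not given in the sources used here. Of 17 non-polyadenylated RNAs listed, 12 had no count in either library, among them RN7SK, RMRP, RPPH1 and TERC. RN7SL2, the RNA of the signal recognition particle, was the exception, with 32422 counts in MAEL WT and 26140 in MAEL KO, a log2 fold change of -0.10. RNU5A-1 had 2 and 5 counts. Reads assigned to snRNA genes summed to 707 in MAEL WT and 693 in MAEL KO, and those of snoRNA genes to 770 and 1039. Of the 12 snRNA genes tested, 8 were lower in MAEL KO, with a median log2 fold change of -1.40. Of the 33 snoRNA genes tested, 10 were lower, with a median of 0.85, against 52% of all genes tested. RN7SL1, listed beside RN7SL2, had no count. How reads that fit several copies were treated is not given in the sources used here, so a count of 0 does not show that an RNA was absent. These values describe reads as assigned to genes, and their part in the level of the histone genes was not tested.

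MAEL had 1 count in MAEL WT and 0 in MAEL KO, so the labels could not be checked by the targeted gene. Mitochondrial genes took 4.42% and 4.95% of the counts. The libraries also stood far apart in liver genes. The 9 liver markers listed were each counted at least 10 times in 1 library and were all higher in MAEL KO, with a sum of 8347 CPM in MAEL WT and 22299.6 CPM in MAEL KO that came mostly from SERPINA1 and APOB. ALB, the serum albumin gene, had 59 counts in MAEL WT and 8550 in MAEL KO, AFP had 26 and 1351, and APOA1 had 419 and 4400. Of 9 markers of other cell types, 4 reached 10 counts, PECAM1, VIM, COL3A1 and COL1A1, with a sum for the list of 38.5 CPM in MAEL WT and 48.2 CPM in MAEL KO, while CD3E was at 0 and PTPRC at 3 and 0 counts. Within this sum, carried by VIM and PECAM1, the collagen genes differed in direction, with 92 and 11 counts for COL1A1 and 54 and 136 for COL3A1. The part of these differences in the histone result was not tested.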

How the data were processed

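RNA from 1 culture each of MAEL WT and MAEL KO was read on an Illumina HiSeq. The authors deposited whole-number read counts per gene without normalization and FPKM values, whose values scale as counts over gene length and a library size that was adjusted for composition. The submitters' processing notes name HISAT2 2.0.5, featureCounts 1.5.0-p3 and hg19, whereas the table lists GRCh38 coordinates. All sample columns were used.

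Counts were scaled by TMM in edgeR 4.0.16 (R 4.3.3), with DESeq2 1.42.0 for other size factors, and summarised with pandas 2.3.3, SciPy 1.17.1 and NumPy 2.4.6 under Python 3.11.15 (plots: matplotlib 3.10.9). Log2 fold changes have 1 added and need 10 counts in 1 library. Intervals were taken from the MAEL KO share of a gene's counts (exact Clopper-Pearson) and, like floors of 3 counts, cover counting error only, since reads are not independent molecules.

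On simulated data drawn from these libraries with counting error only, 200 of 200 genes changed by 3 on the log2 scale passed 2. So did 19 of 17284 unchanged genes, out of 17484 genes in the step. The changed genes were drawn from those with at least 200 counts over both libraries. Most of the histone genes tested had fewer, so recovery at their depth was not tested. Stem-loops and 100-base words were searched in GENCODE 29 transcripts.

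The members and lists were chosen with earlier results of these data known. Named were histone genes with 100 counts in 1 library or past 2, near-identical copies, up to 3 genes at each end of each list, SLBP, NPAT, H2AFX and H2AFZ; other histone genes were named after their values were seen. Some genes that this rule names are not reported here. Alternatives are other scalings, added counts, filters, members and a threshold of 1.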

Additional observations from a re-analysis of the deposited data

How the results depend on the processing

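The median log2 fold change of the histone genes stayed below 0, between -1.03 and -0.45, over the 10 alternatives computed for it. Among these, leaving out the near-identical copies could not move the median, since none of the copies was tested. Scaling by total counts shifted all genes (median -0.31 against -0.04) and gave a median of -1.0 for the histone genes and of -1.09 for H1 genes. It also gave summed log2 ratios of -0.76 for H2A and -1.35 for H2B, and a median of 1.64 for S-phase genes. Without a count filter, 37 of 59 histone genes were below 0 and 22 above, against 52.5% of 30059 genes below 0. The median was then 0.23 for H2A, which changed sign, -0.27 for H3 and -0.34 for the HIST1 cluster. With at least 100 counts, 6 genes were below 0 and 0 above, against 45.8% of 12023 genes below 0. At that filter 0% were below -2, as with 5 added, against 2.35% and 2.87% of all genes. At a threshold of 1, 37.5% were below it, against 16.5% of all genes. The H1 median over 2 genes was -0.87 with the FPKM ratio, -0.86 with 0.1 added and -0.70 with 5 added. Summed FPKM gave log2 ratios of -0.14 for H2A, -1.25 for H2B and -0.28 for H3. Without HIST1H2BK, an alternative chosen after seeing the data, the H2B ratio was -0.87. Why these values moved was not tested. No library could be left out, and no paired analysis was possible because there is 1 library per condition.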

Other observations

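MALAT1 and NEAT1, long nuclear RNAs that include forms whose 3′ ends are made without a poly(A) tail, were also lower in MAEL KO and were chosen after their values were seen. NEAT1 on chromosome 11, from 65422774 to 65445540, had 16194 counts in MAEL WT and 1699 in MAEL KO, a log2 fold change of -3.04 (counting interval -3.12 to -2.97). MALAT1 on the same chromosome, from 65497688 to 65506516, had 5407 and 1502 counts, a log2 fold change of -1.64 (counting interval -1.72 to -1.55). The part of library selection in these values was not tested.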
